A study of Mus musculus with 10 samples.

Results

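The mitochondrial ribosomal protein genes, whose symbols start with Mrpl or Mrps followed by a digit, were followed in the mouse left ventricle after transverse aortic banding (TAB), which narrows the aorta and loads the ventricle with pressure. Symbols alone decided which genes belong, and 69 of the 19942 gene symbols on the array matched. Probes that fell below a scaled intensity of 1 on at least 1 array were removed. This left 68 of the genes, among 16113 in all, and took out Mrps25, whose only probe was not found by the scanner software on any array. The animals were male C57BL/6J mice aged 8 weeks that underwent TAB, done under isoflurane, or a sham operation, and RNA was taken from the left ventricle on days 3, 5, 7, 14 and 28. Each operation and day had 1 sample, which makes 5 TAB and 5 sham samples, and the number of mice behind a sample is not stated. The condition label of the TAB sample of day 14 reads 15 days while its title reads 14, and it was used as day 14.

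Mitochondria carry a ribosome of their own, the mitoribosome, which translates the few respiratory chain proteins that are encoded in mitochondrial DNA. Its small subunit (Mrps proteins) binds the mRNA and decodes it, and its large subunit (Mrpl proteins) joins the amino acids and holds the exit tunnel next to the inner membrane. All of these proteins are encoded in the nucleus, made in the cytosol and imported, so that their mRNAs are measured like those of any other nuclear gene. Many descend from ribosomal proteins of bacteria, whereas others are found in mitochondria only. The heart muscle cell is rich in mitochondria and draws most of its ATP from the respiratory chain. A few symbols mislead: the products of Mrps18a and Mrps30 sit in the large subunit, and Mrps36 encodes a component of the 2-oxoglutarate dehydrogenase complex.

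Nuclear genes for mitochondrial proteins often carry start sites with words bound by NRF1, by factors of the ETS family (GABP among them) or by YY1, and such words were counted in the promoters of the 59 of 68 genes that had an entry in the RefSeq promoter set of build GRCm38.p6, from 250 bases before to 50 after the start. The words searched on both strands were GCGCATGC for NRF1, CCGGAAG for ETS and AAGATGGC for YY1, and none of them contains another. The NRF1 word was present in 7 of the 59 genes, which is 11.9% against 3.05% of all 27025 genes with an entry. The ETS word was present in 22 genes (37.3% against 9.93%) and the YY1 word in 11 (18.6% against 3.19%), and 33 genes had at least 1 of the 3 (55.9% against 14.9%). These are matches of letters and not measured binding sites. The 150 bases before the start are shown for 5 genes whose mRNA was lower in TAB and, after them, for Mrpl33 and Mrpl34, which had positive mean ratios that did not pass the test. Capitals mark the NRF1 or ETS word.
Mrps31, chr8:22411190-22411339, plus strand: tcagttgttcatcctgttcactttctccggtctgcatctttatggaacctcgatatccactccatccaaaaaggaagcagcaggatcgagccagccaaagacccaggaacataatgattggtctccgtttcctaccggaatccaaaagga
Mrpl39, chr16:84735245-84735394, minus strand: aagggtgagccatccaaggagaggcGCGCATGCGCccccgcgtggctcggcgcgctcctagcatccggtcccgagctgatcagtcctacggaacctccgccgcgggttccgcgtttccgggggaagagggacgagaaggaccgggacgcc
Mrps15, chr4:126046778-126046927, plus strand: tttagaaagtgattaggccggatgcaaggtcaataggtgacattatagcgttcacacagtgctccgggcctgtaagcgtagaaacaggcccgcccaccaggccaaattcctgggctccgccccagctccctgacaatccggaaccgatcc
Mrpl18, chr17:12916092-12916241, minus strand: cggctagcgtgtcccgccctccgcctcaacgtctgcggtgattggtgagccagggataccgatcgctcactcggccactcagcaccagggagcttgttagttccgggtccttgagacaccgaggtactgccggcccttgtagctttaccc
Mrps9, chr1:42851083-42851232, plus strand: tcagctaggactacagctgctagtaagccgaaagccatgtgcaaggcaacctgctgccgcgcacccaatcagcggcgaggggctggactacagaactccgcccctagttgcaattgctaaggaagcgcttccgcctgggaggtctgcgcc
Mrpl33, chr5:31613801-31613950, plus strand: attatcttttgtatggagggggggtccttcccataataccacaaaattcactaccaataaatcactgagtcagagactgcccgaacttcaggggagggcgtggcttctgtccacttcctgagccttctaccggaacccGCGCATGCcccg
Mrpl34, chr8:71464776-71464925, plus strand: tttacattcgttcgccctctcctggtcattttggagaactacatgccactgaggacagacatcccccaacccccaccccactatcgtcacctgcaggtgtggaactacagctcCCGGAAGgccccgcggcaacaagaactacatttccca
The stretch of Mrpl39 holds the NRF1 word on both strands, overlapping. Mrpl33 holds the NRF1 word and Mrpl34 the ETS word close to the start, and the other 4 stretches hold none of the 3 words. Mrpl18, Mrps18c and Mrpl33 have the ETS word elsewhere in their windows. The median of the mean log2 ratio of TAB over sham was −0.07 in the 7 genes with the NRF1 word and −0.18 in the 52 without it, −0.24 in the 22 with the ETS word and −0.12 in the 37 without it, and −0.12 in the 11 with the YY1 word and −0.19 in the 48 without it. These medians are a description, with no test.

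mRNA levels are given as normalized intensity, the brightness of a probe after the arrays were brought to a common scale, and differences as the log2 ratio of TAB over sham of the same day. Before scaling, the median intensity of an array lay between 34 and 57, and 52.7% to 59.8% of probes were found on an array. Both low ends were those of the TAB sample of day 3, where the sham sample of day 3 had 53 and 59.0%. The used probe was found on all 10 arrays for 62 of the 68 genes. It was found on none for Mrpl45, Mrpl21 and Mrpl11, on 1 for Mrps10, on 5 for Mrpl41 and on 8 for Mrps14. The 68 genes were brighter than most genes they are compared with. Their median in a sample lay between 10.16 and 10.72 on the log2 scale, and that of all genes between 6.88 and 6.92.

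Most of the mitochondrial ribosomal protein genes had a mean log2 ratio of TAB over sham slightly below 0, and few passed the test. The mean log2 ratio over the 5 days was below 0 in 55 of 68 genes (80.9%), against 52.9% of all genes, and the median was −0.19 against −0.03 for all genes. The middle part of the genes lay between −0.34 and −0.03 (quartiles), and 35 of 68 were within 0.25 of 0. The log2 ratio was below 0 on all 5 days in 25 genes (36.8%, against 17.5% of all genes), and above 0 on all 5 days in 2, against 17.3% of all genes. The count below 0 on all 5 days was 17 with median scaling only (25%, against 13.5%) and 16 with quantile normalization within each operation (23.5%, against 13.8%). In limma's test (blocked by day, p-values adjusted by Benjamini-Hochberg over all 16113 genes), 8 of 68 genes (11.8%) were lower in TAB at an adjusted p under 0.05, where 7.87% of all genes were, and 0 of 68 were higher, where 9.19% of all genes were. At an unadjusted p under 0.05, 22 were lower, where 18.2% of all genes were, and 1, Mrps34, was higher, where 17.5% were. In tissue RNA, fewer cells of a type and less RNA per cell cannot be told apart.

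The count of calls changed when a day was left out. Without the samples of day 3, 5, 7 or 14, 0 of 68 genes were lower at an adjusted p under 0.05. Without those of day 28, 10 were. Over all genes, 30, 98, 22 and 947 calls were left without day 3, 5, 7 or 14, and 2753 without day 28, against 2749 with all days. The means of all 8 called genes stayed below 0 with any day left out. Mrps31 had −0.86 to −0.71, Mrpl39 −0.84 to −0.67, Mrps15 −0.71 to −0.54 and Mrps9 −0.49 to −0.40. Whether the lost calls came from the day itself or from the fewer samples was not tested. With probes below 1 kept and set to 1, 0 of 69 were lower, where 1.09% of all genes were. The genes Mrps15, Mrps9 and Mrpl18 lost their calls with median scaling only and with quantile normalization within each operation, and Mrpl18 also lost its call without day 28. The size of the median also depended on the scaling of the arrays. It was −0.06 with median scaling only, where all genes had a median of 0.02 and 40 of 68 genes were below 0 (47.9% of all genes), and −0.08 with quantile normalization within each operation, where all genes had 0.02 and 42 of 68 were below 0 (48.2% of all genes).

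**Figure D1:**
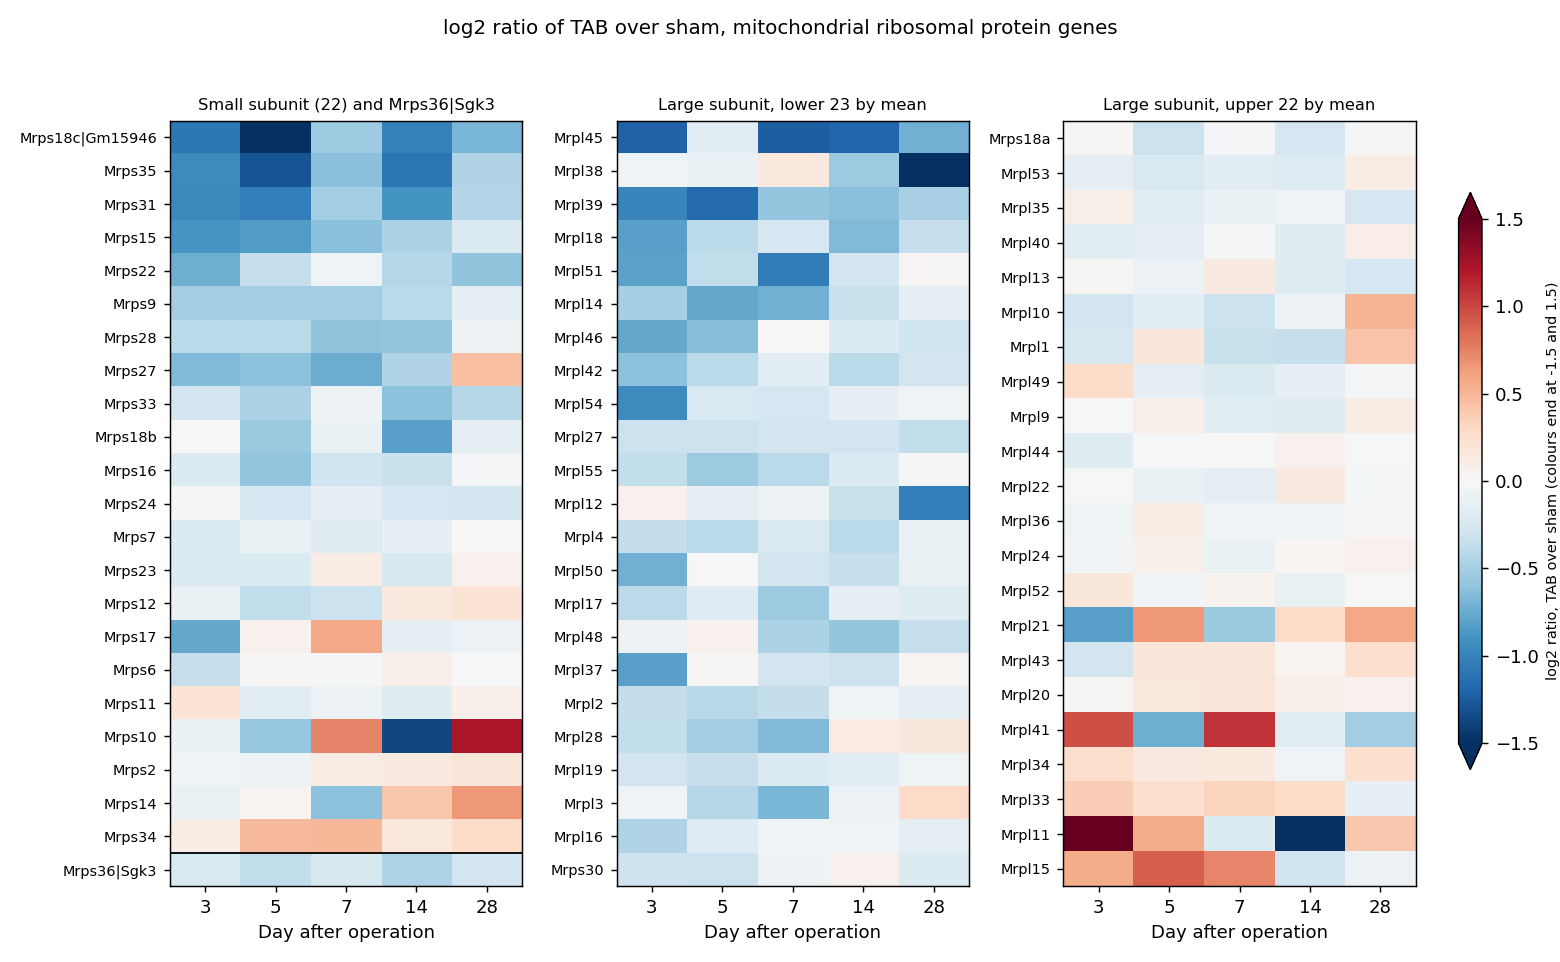
Each row is a gene and each column a day, and the colour is the log2 ratio of TAB over sham (blue, lower in TAB; colours end at −1.5 and 1.5), for the 22 small-subunit genes and Mrps36|Sgk3 on the left and the 45 large-subunit genes in the middle and right panels, sorted by their mean. Blue fills most of the upper rows of the left and middle panels on all 5 days, and Mrpl38 is darkest on day 28. The right panel is mostly pale, except for Mrpl15, higher in TAB on days 3, 5 and 7, and the dim probes of Mrpl11, Mrpl21 and Mrpl41. The dim probe of Mrps10 in the left panel has dark cells in both directions. With median scaling only, 15 of the 55 means below 0 turn to above 0, and with quantile normalization within each operation 13.

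The small subunit held 5 of the 8 calls in 22 genes (22.7%, where 7.87% of all genes were lower), none of which remained without day 3, 5, 7 or 14. It had a median of the mean log2 ratio of −0.24, which was −0.15 with median scaling only and −0.17 with quantile normalization within each operation. Mrps35, a small-subunit protein found in mitochondria only, had a normalized intensity of 1272, 1030, 1468, 1445 and 2106 in the TAB samples of days 3, 5, 7, 14 and 28 and of 2458, 2543, 2266, 3076 and 2882 in the sham samples. Every TAB value was below every sham value. The mean log2 ratio was −0.88 ± 0.15, which is 45.8% lower, with a limma adjusted p of 0.023. The ± is limma's SE over the 5 days, for which limma draws the variance of a gene partly from all genes. The same SE is given below, except where the probes of a gene are compared.

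Mrps31, likewise found in mitochondria only, read 946, 926, 1272, 1107 and 1410 in TAB and 1847, 1909, 1813, 2072 and 1915 in sham. The sham samples lay close together and all above the TAB samples, of which day 28 came nearest. On average the log2 ratio was −0.77 ± 0.14, 41.5% lower, with a limma adjusted p of 0.023.

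Mrps15 descends from a bacterial protein of the small subunit that binds its rRNA. It read 1137, 1301, 1390, 1557 and 1722 in TAB and 2098, 2332, 2155, 2177 and 2002 in sham. The groups did not overlap, and the log2 ratio of a day ran from −0.88 on day 3 to −0.22 on day 28. Over the days it averaged −0.61 ± 0.13, 34.6% lower, with a limma adjusted p of 0.034.

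Mrps9, another protein with a bacterial homolog, read 479, 488, 499, 537 and 672 in TAB and 683, 700, 715, 714 and 747 in sham. The groups did not overlap, although the TAB sample of day 28 came close to the lowest sham sample. Its mean log2 ratio was −0.42 ± 0.11, 25.4% lower, with a limma adjusted p of 0.046.

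The probe with the symbol Mrps18c|Gm15946 names 2 genes and so cannot be given to Mrps18c alone. It read 44.2, 46.9, 91.9, 82.1 and 117 in TAB and 93.8, 137, 135, 166 and 189 in sham. TAB was below sham on each day, but the TAB sample of day 28 exceeded the sham sample of day 3. Its mean log2 ratio was −0.98 ± 0.17, with a limma adjusted p of 0.023. Mrps18b and Mrps18a, paralogs of Mrps18c, had mean log2 ratios of −0.32 ± 0.16 (adjusted p = 0.195) and −0.13 ± 0.11 (adjusted p = 0.448), neither past the limma threshold, and the mean of Mrps18a was 0.0042 with median scaling only. Mrps18b had −0.20 without day 14, and Mrps18c|Gm15946 had −0.63 with 50 added.

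The large subunit held 3 of the 8 calls in 45 genes. That is 6.67%, no more than the 7.87% of all genes. Its median was −0.17, and −0.05 with median scaling only and −0.07 with quantile normalization within each operation. Mrpl39, a protein found in mitochondria only, read 670, 752, 889, 956 and 1112 in TAB and 1329, 1696, 1333, 1475 and 1559 in sham. All TAB samples were below all sham samples, and the lowest TAB value was that of day 3. The mean log2 ratio was −0.77 ± 0.14, 41.4% lower, with a limma adjusted p of 0.025.

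Mrpl18, whose bacterial relative binds the 5S rRNA, read 1701, 1877, 2051, 2156 and 2571 in TAB and 2978, 2502, 2441, 3411 and 3282 in sham. TAB was lower on each day, and the TAB sample of day 28 lay above the sham samples of days 5 and 7. On average the log2 ratio was −0.50 ± 0.12, 29.2% lower, with a limma adjusted p of 0.044.

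Mrpl45, whose protein lies at the exit of the tunnel and ties the ribosome to the inner membrane, passed the threshold too (limma adjusted p = 0.032), but its probe was not found on any array. It read 7.35, 12.7, 8.35, 6.59 and 7.75 in TAB and 17.0, 14.3, 19.8, 15.0 and 12.8 in sham, and no fold is given for a probe that was not well above background in either group. It was not called with 50 added or with trend and robust on.

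**Figure D2:**
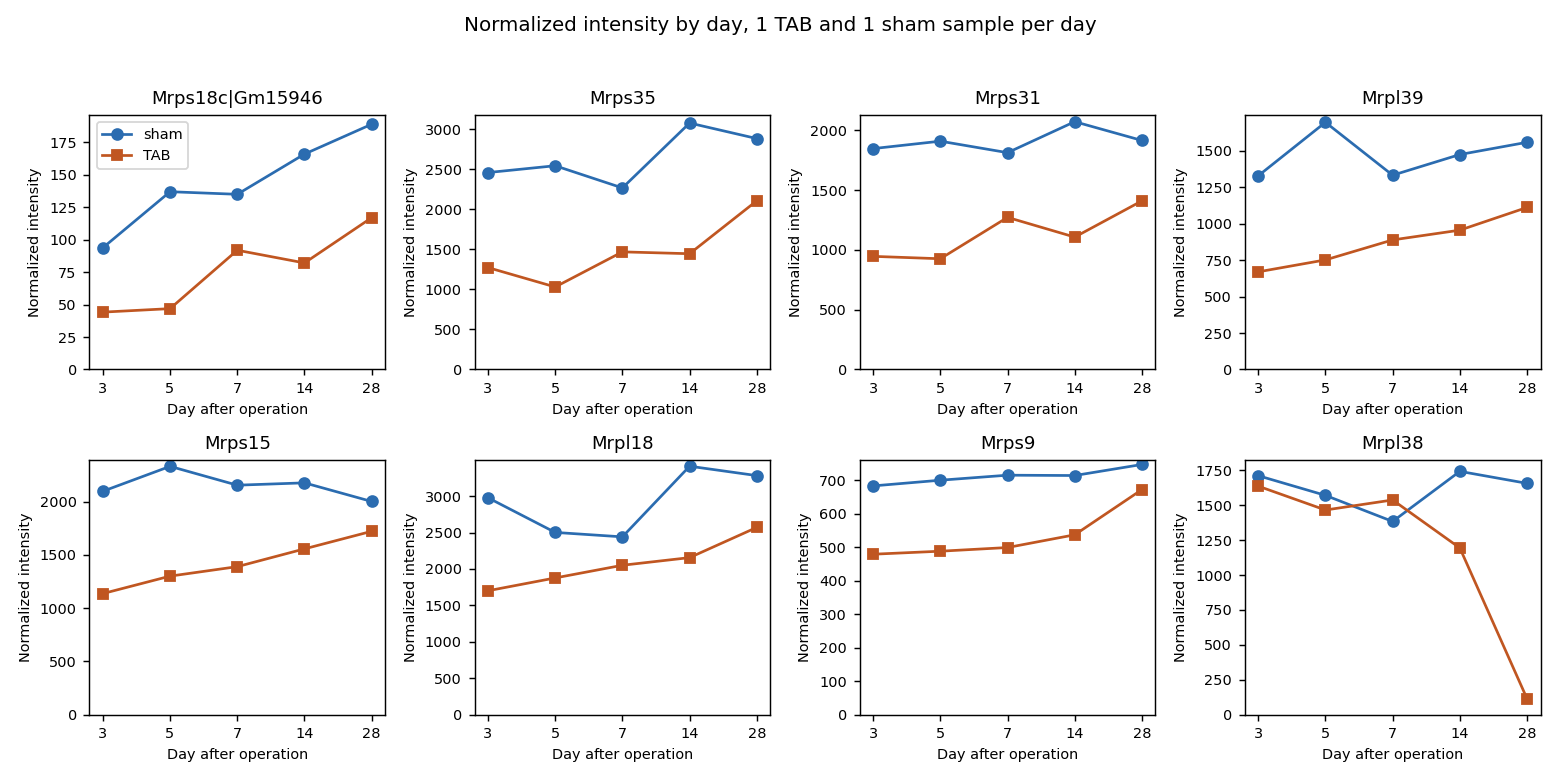
Normalized intensity (vertical axis, from 0, with its own range in each panel) by day in the TAB sample (squares) and the sham sample (circles) of that day, for the 7 genes called lower in TAB whose probes were found on all 10 arrays and for Mrpl38; lines join different samples. TAB lies below sham on each day in the first 7 panels, and Mrpl38 differs mainly on day 28, where TAB read 114 and sham 1657.

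Without overlap, 12 of 68 genes (17.6%) had all 5 TAB values below all 5 sham values, where 7.76% of all genes did, and 0 of 68 had them all above, where 9.99% did. In both directions together, 17.7% of all genes did not overlap. Those 12 include 6 of the 8 genes called by limma. Without the samples of day 28, 21 genes lay all below, where 14.6% of all genes did, and 1 all above, where another 14.6% did. Together these were 29.2% of all genes. With median scaling only, 7 lay all below and 1 all above (4.95% and 12.8% of all genes), and with quantile normalization within each operation, 6 and 2 (5.51% and 12.7%). With probes found on all 10 arrays, 11 of 65 lay all below and 1 all above (10.3% and 12.3% of all genes).

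Genes with positive mean ratios were few and did not pass the test. Mrps34, a small-subunit protein found in mitochondria only, read 4388, 4223, 4923, 4228 and 4009 in TAB and 4057, 3014, 3470, 3795 and 3307 in sham. TAB exceeded sham on each day, and the groups overlapped through the sham sample of day 3. The mean log2 ratio was 0.31 ± 0.11, with a limma adjusted p of 0.108. It was called with 50 added and with trend and robust on.

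Mrpl33 and Mrpl34, small proteins of the large subunit with bacterial homologs, had mean log2 ratios of 0.22 ± 0.12 (adjusted p = 0.229) and 0.14 ± 0.10 (adjusted p = 0.367). Mrpl33 read 6136, 5763, 7656, 6568 and 5661 in TAB and 4747, 4875, 6102, 5454 and 6140 in sham, higher in TAB on every day but day 28. Mrpl34 read 2313, 1756, 1867, 1559 and 1923 in TAB and 1937, 1604, 1680, 1640 and 1612 in sham, higher in TAB on every day but day 14, and its mean was 0.26 with median scaling only.

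Mrpl15, a large-subunit protein with a bacterial homolog, had the highest mean log2 ratio, 0.36 ± 0.21 (adjusted p = 0.270), from 70.6, 68.4, 74.4, 36.9 and 42.0 in TAB and 47.8, 36.6, 44.9, 45.6 and 44.7 in sham. The mean was 0.23 without day 5 and 0.19 with 50 added. The 3 early TAB samples were high and the 2 late ones lay below their sham samples.

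Mrpl12, which also binds the mitochondrial RNA polymerase, had a mean log2 ratio of −0.30 ± 0.18 (adjusted p = 0.269), with 1316, 1052, 1420, 1121 and 1680 in TAB and 1266, 1171, 1497, 1411 and 3397 in sham. The sham sample of day 28 stood far above the rest, and the log2 ratio of that day was −1.02, against −0.33 to 0.06 on the others. The mean was −0.13 without day 28 and −0.18 with median scaling only. Mrpl10, which anchors Mrpl12 to the large subunit, had −0.07 ± 0.15 (adjusted p = 0.780), and between −0.21 (without day 28) and −0.0065 (without day 7) with a day left out.

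Mrps12, at the decoding centre, had −0.09 ± 0.13 (adjusted p = 0.665) and Mrpl44, related to RNase III enzymes, −0.03 ± 0.10 (adjusted p = 0.878). The means of Mrpl10, Mrps12 and Mrpl44 were above 0 with median scaling only. Mrps12 had −0.16 without day 28 and −0.02 without day 5. Mrps30 had −0.17 ± 0.11 (adjusted p = 0.306), and −0.05 with median scaling only and −0.07 with quantile normalization within each operation. The probe Mrps36|Sgk3, whose symbol names 2 genes, had −0.32 ± 0.10 (adjusted p = 0.071), with TAB below sham on each day, and −0.20 with median scaling only. It was called lower with 50 added, without the lowest tertile of genes, with probes found on all 10 arrays, without the day block and with trend and robust on.

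By the DE rule of the study's methods, a log2 ratio more than 2 SDs of all genes from 0 on a day, 2 of 68 genes (2.94%) were DE on at least 1 day, where 17.5% of all genes were. This rule has no replicate check, and without day 28 the count was 1. With probes found on all 10 arrays, 4 of 65 genes were DE, where 13% of all genes were. Mrpl38, a large-subunit protein found in mitochondria only, was DE down on day 28 with a log2 ratio of −3.86 (114 in TAB, 1657 in sham). Its other samples read 1637, 1466, 1538 and 1194 in TAB and 1712, 1571, 1384 and 1743 in sham on days 3, 5, 7 and 14, and over the 5 days it did not pass limma's test (adjusted p = 0.348) and had a mean of −0.14 without day 28. Mrpl11, a large-subunit protein with a bacterial homolog, was DE up on day 3 and down on day 14 by a probe that was not found on any array and read between 1.52 and 9.81.

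Different probes had means of opposite sign for 4 genes. For Mrpl11, Mrpl41 and Mrps10 the used probe was dim and its SE over the days exceeded the size of its mean, so its sign is not settled. The other probe of Mrpl11, found on all 10 arrays, read 1148, 1239, 1225, 1431 and 1665 in TAB and 1575, 1835, 1434, 1671 and 1761 in sham. It was lower on each day, with a mean log2 ratio of −0.31 ± 0.09. In these probe comparisons the SE is the SD of the 5 day ratios over the square root of 5, without limma. For Mrpl41, the dim used probe had a mean log2 ratio of 0.13 ± 0.38. The other probe, found on all 10 arrays, had −0.27 ± 0.05 and was lower on each day, from 2470, 2118, 2093, 2253 and 2369 in TAB and 2871, 2887, 2478, 2507 and 2938 in sham.

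For Mrps10, the used probe was found on 1 array and had a mean log2 ratio of −0.02 ± 0.46, from values near background. The others, both found on all 10 arrays, had 0.24 ± 0.06 and 0.13 ± 0.11. For Mrpl48, both probes were found on all 10 arrays, with −0.28 ± 0.12 for the used one and 0.03 ± 0.12 for the other.

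By origin, the 40 genes with bacterial homologs had a median of the mean log2 ratio of −0.09 and 4 calls (10%), and the 27 genes counted as found in mitochondria only had −0.29 and 4 calls (14.8%), where 7.87% of all genes were lower. The 27 include Mrps18a and Mrps18b, although their paralog Mrps18c is counted among the 40. The median of the 40 was −0.01 with median scaling only and 0.00 with quantile normalization within each operation, and that of the 27 was −0.19 in both. Under both scalings only Mrps18c|Gm15946 of the 40 stayed called, while the 4 calls of the 27 stayed. Within the small subunit, the 14 genes with bacterial homologs had −0.11 and the 8 others −0.39, and within the large subunit, the 26 had −0.08 and the 19 others −0.27. These differences were not tested.

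Over time, the median log2 ratio of the 68 genes took the values −0.24, −0.20, −0.17, −0.19 and −0.07 from day 3 to day 28, and 52, 50, 53, 54 and 43 of the 68 were lower in TAB on these days. The share below 0 was 76.5% on day 3 and 63.2% on day 28, against 50.2% and 50.9% of all genes. With median scaling only, the medians of the days were −0.08, −0.16, −0.03, −0.15 and −0.02, so that day 3 was no longer the lowest. With quantile normalization within each operation, they were −0.15, −0.12, −0.10, −0.13 and 0.04. The log2 ratios of the late days 14 and 28 were tested against those of the early days 3, 5 and 7 with limma, and 0 of 68 genes and 0% of all genes passed an adjusted p under 0.05. The lowest adjusted p of the 68 was 0.394, and 3 had an unadjusted p under 0.05, where 11% of all genes had. These were Mrpl15 (late minus early −0.93), Mrpl28 (0.66) and Mrps14 (0.77), the last 2 chosen after their values were seen. The difference was above 0 in 40 of 68 genes.

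The median level of the 68 genes in a sample lay between 10.16 and 10.50 on the log2 scale in TAB and between 10.59 and 10.72 in sham, so that the samples of the operations did not overlap. With median scaling only, the ranges were 10.21 to 10.53 and 10.50 to 10.67, and with quantile normalization within each operation 10.21 to 10.54 and 10.53 to 10.66, so that they overlapped. They also overlapped with 50 added, 10.40 to 10.75 and 10.72 to 10.78.

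**Figure D3:**
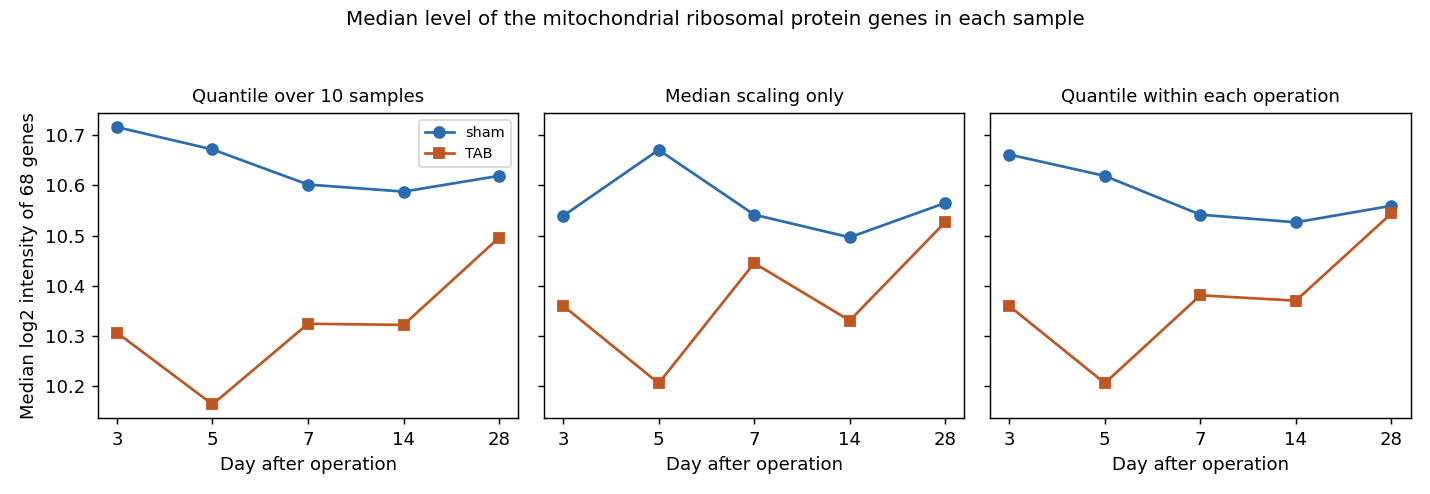
The vertical axis is the median log2 normalized intensity of the 68 genes in each TAB sample (squares) and sham sample (circles), by day, under 3 ways of bringing the arrays to a common scale; lines join different samples. TAB lies below sham on each day in each panel, and the highest TAB sample (day 28) lies below the lowest sham sample only in the left panel, with quantile normalization over all 10 samples.

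Other genes of mitochondrial translation were read from lists of known components, whose counts stand against 7.87% of all genes lower and 9.19% higher. The 6 other mitoribosome subunits had a median of the mean log2 ratio of −0.27, and 1 was lower in TAB and 0 higher. It was Ptcd3, a small-subunit protein that binds RNA, with −0.83 ± 0.15 (adjusted p = 0.025). Of 11 translation factors, 3 were lower and 0 higher, with a median of −0.29. They were Oxa1l, which inserts new proteins into the inner membrane (−0.82 ± 0.12), the release factor Mtrf1 (−0.75 ± 0.17) and the initiation factor Mtif2 (−0.60 ± 0.15).

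Of 16 mitochondrial aminoacyl-tRNA synthetases, which load tRNAs with amino acids, 4 were lower and 0 higher, with a median of −0.22. Among them, Fars2 had −0.61 ± 0.13, Cars2 −0.50 ± 0.12 and Yars2 −0.44 ± 0.10. Of 16 mitoribosome assembly factors, 3 were lower and 1 higher, with a median of −0.26. The lower ones were Nsun4, an rRNA methyltransferase (−0.67 ± 0.14, probe found on 3 of the 5 TAB arrays), and the GTPases Gtpbp5 (−0.64 ± 0.13) and Gtpbp10 (−0.47 ± 0.10). The higher one, the rRNA methyltransferase Tfb1m, was found on 2 of 10 arrays, both TAB.

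Of 7 genes of mitochondrial transcription and DNA maintenance, 1 was lower, the helicase Peo1 (−0.65 ± 0.16), and 0 were higher, with a median of −0.11. Of 9 regulators of mitochondrial biogenesis, 1 was lower and 0 higher, with a median of −0.25. It was Ppargc1a, the coactivator PGC-1α, with −1.36 ± 0.20 (adjusted p = 0.018, probe found on 4 of the 5 TAB arrays).

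The nuclear-encoded respiratory chain subunits had a median of −0.34, and 20 of 75 were lower in TAB and 0 higher. Among them were Cox7a1, a subunit of cytochrome c oxidase (−0.93 ± 0.18), and the complex I subunits Ndufb2 (−0.88 ± 0.18) and Ndufs1 (−0.78 ± 0.15). The cytosolic ribosomal proteins had a median of 0.24, with 4 of 41 lower and 8 higher. Their median was 0.30, 0.47 and 0.40 on days 3, 5 and 7, but −0.0004 and 0.02 on days 14 and 28. Among the higher ones, the probes of Rpl13 and Rpl24 were not found on any sham array. The medians of these lists kept their sign with median scaling only and with quantile normalization within each operation, but several were smaller in size. With these scalings, the translation factors had −0.15 in both, the assembly factors −0.15 in both, the other mitoribosome subunits −0.17 and −0.19, and the regulators −0.16 and −0.17. The respiratory chain subunits had −0.30 and −0.33. The translation factors also had −0.16 with the mean of each rank and −0.12 with 50 added, and the cytosolic ribosomal proteins had 0.15 with 50 added. No list was tested against another.

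**Figure D4:**
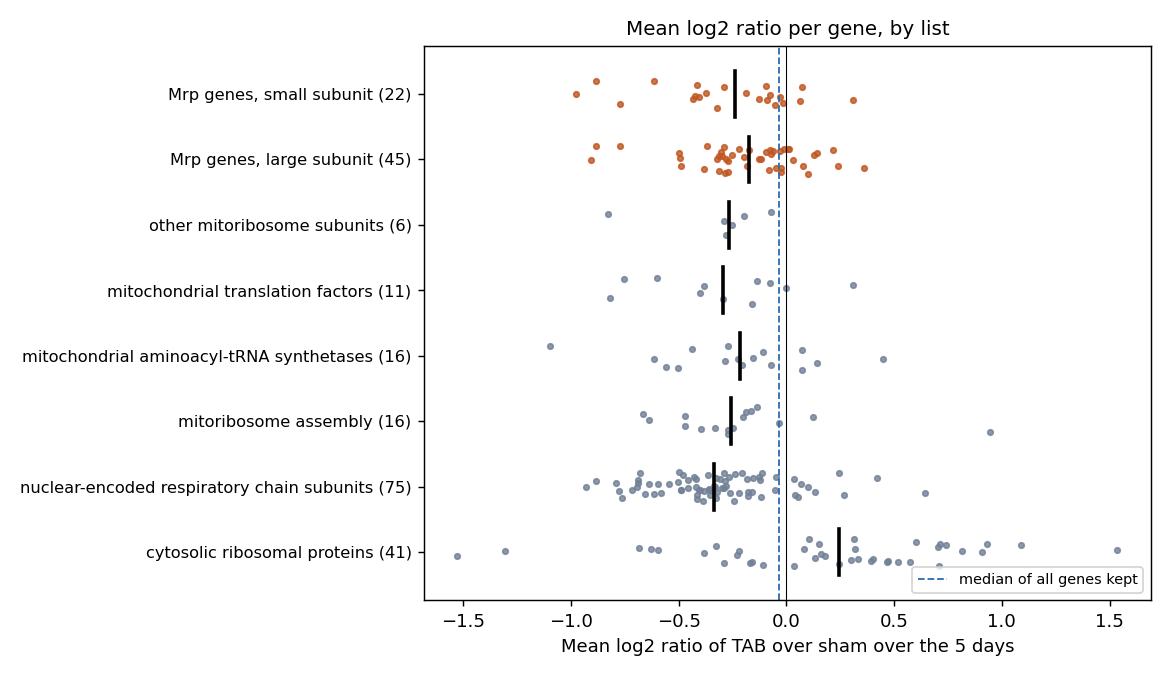
Each point is a gene, placed by its mean log2 ratio of TAB over sham over the 5 days; rows are lists with the number of genes in brackets, thick bars their medians, and the dashed line the median of all genes kept (−0.03). The medians of the 7 mitochondrial rows lie between −0.34 and −0.17 and that of the cytosolic ribosomal proteins at 0.24; with median scaling only and with quantile normalization within each operation the large subunit's median is −0.05 and −0.07.

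Most fibroblast and leukocyte markers were higher in TAB. The counts of markers also stand against 7.87% of all genes lower and 9.19% higher. Of 6 fibroblast markers kept, 4 were higher in TAB (Postn, Col1a2, Col3a1 and Lum) and 0 lower. Dcn and Tcf21, with mean log2 ratios of 0.26 and 0.24, did not pass the test. The summed intensity of the 6 was 29410 to 47071 in TAB and 19819 to 23136 in sham. Postn alone read 7215 to 17226 in TAB and 1190 to 1367 in sham. The probes of Col1a1 and Pdgfra were not found on any array. Of 7 leukocyte markers, 6 were higher and 1, Cd3e, was lower, with sums of 2547 to 5792 in TAB and 1751 to 2144 in sham. Of 10 cardiomyocyte markers, all found on every array, 1 was lower, Mb (myoglobin), and 0 higher. Their median of the mean log2 ratio was −0.14, and −0.19 both with median scaling only and with quantile normalization within each operation. Their sums overlapped, 274927 to 293334 in TAB and 279555 to 302728 in sham. Of 6 endothelial markers, 0 passed the limma threshold in either direction, with sums of 5464 to 8195 in TAB and 5616 to 7180 in sham. The part of these cell types in the ratios of the mitochondrial ribosomal protein genes was not tested.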

How the data were processed

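RNA of 5 TAB and 5 sham samples was hybridized by the authors to a Mouse Whole Genome OneArray in 1 colour (Cy5). They deposited the raw intensity of each of 26423 probes with the background already subtracted by a method not given in the sources used here, together with a detection p-value, which was not used, and a flag, whose negative value was read as a spot not found by the software. Symbols are those of the deposited table, and 3633 probes without one were left out.

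Arrays were brought to the same median, and probes under 1 on any array were dropped (19976 remained). Quantile normalization over the 10 arrays, to the median at each rank, was followed by log2. Of several probes of a gene, the one whose log2 ratios summed highest in absolute size was used, which favours variable probes. The 69 genes lie on 77 probes. The TAB effect was tested over all genes with limma 3.58.1 in R 4.3.3 (lmFit and eBayes, trend and robust off), with day as a block, since the study's ratios are within a day; the 5 days stand in for replicates, so an SE holds differences between days as well as between samples, and nothing says how the samples relate to animals. TAB and sham deviations of a day correlated with r between −0.0165 and 0.113. The fit was tested on simulated data. Samples were grouped by the labels. Python 3.11.15 with pandas 2.3.3 did the rest.

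The choice of this gene family, the lists and the tests was made with earlier results of these data known, while symbols alone decided which genes belong to the family. Named are the genes called by limma, the 5 highest and 5 lowest means, those DE on a day, 10 of fixed interest and those whose probes disagree; some genes of the comparison lists are not reported here. Alternatives were other scalings, filters, probe choices and limma settings, an offset of 50, no day block and each day left out. The number of arrays limits the precision.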

Additional observations from a re-analysis of the deposited data

Results flagged for a closer look

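In 50 sets of 5 samples (the TAB or the sham samples of 25 named genes), 4 had 1 sample far from the others, measured as its gap to the nearest sample over the range of the 5 samples on the log2 scale, where a share above 0.71 was taken as far. Chance flags about 1 in 20 groups, a rate that holds only for groups not chosen by their values, and some of these genes were named for extreme values, Mrpl38 for its day 28.

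The TAB sample of day 28 was far below the other TAB samples for Mrpl38, with a share of 0.882 (114 against 1194 to 1637). The sham sample of day 28 was far above the other sham samples for Mrpl12, with 0.77 (3397 against 1171 to 1497). The sham sample of day 3 was far above the others for Mrpl34, with 0.755 (1937 against 1604 to 1680). The sham sample of day 5 was far below the others for Mrpl15, with 0.751 (36.6 against 44.7 to 47.8).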

How the results depend on the processing

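The number of genes lower in TAB, 8 of 68, was 5 with median scaling only and with quantile normalization within each operation (5.31% and 5.90% of all genes), 20 with 50 added (13.8%), 16 of 62 without the lowest tertile of genes (18.2%), 16 of 65 with probes found on all 10 arrays (18.4%), 0 of 69 with probes below 1 set to 1 (1.09%), 15 without the day block (10.2%) and 16 with trend and robust on (12.8%). It ranged from 0 to 10 with a day left out. The number higher, 0, was 1, Mrps34, with 50 added and with trend and robust on (13.9% and 13.2% of all genes). The early against late count was 0 in every setting run. The median log2 ratio, −0.19, was −0.058 with median scaling only and −0.081 with quantile normalization within each operation. The number DE on a day, 2, was 4 with 50 added and with probes found on all arrays (12.5% and 13% of all genes), 1 without the lowest tertile and with the mean or the brightest probe (11.6%, 16.9% and 17%), 5 with probes below 1 set to 1 (21.8%), 1 to 2 with a day left out (14.1% to 15.7%) and 11 when the limit was 1 on the log2 scale (42.3%). The 12 genes without overlap, all lower, were 13 to 22 with a day left out, counting both directions (20.9% to 29.2% of all genes); with median scaling only there were 7 below and 1 above (4.95% and 12.8% of all genes), and with quantile normalization within each operation 6 below and 2 above (5.51% and 12.7%). The cause of these changes was not tested.

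With median scaling only, 15 of the 68 means turned from below to above 0, and with quantile normalization within each operation 13, and none turned the other way. Of the 25 named genes, the means that changed sign were these. With median scaling only, Mrpl10 was 0.031, Mrpl44 0.094, Mrps12 0.046 and Mrps18a 0.0042; with quantile normalization within each operation, Mrpl10 was 0.025, Mrpl44 0.060, Mrps12 0.035 and Mrps10 0.0061. With 50 added, probes found on all arrays, the mean of probes and the brightest probe, Mrpl11 was −0.30, −0.31, −0.036 and −0.31, Mrpl41 −0.27, −0.27, −0.072 and −0.27, and Mrps10 0.23, 0.25, 0.12 and 0.24; Mrpl48 was 0.033 with the brightest probe. With a day left out, Mrpl11 ranged from −0.21 (without day 3) to 0.70, Mrpl41 from −0.11 (without day 7) to 0.34, being −0.080 without day 3, Mrpl44 from −0.047 to 0.013 (without day 3), and Mrps10 from −0.32 to 0.32 (without day 14), being 0.0064 and 0.12 without days 3 and 5. The used probes of Mrpl11, Mrpl41 and Mrps10 were at or near background, so that the signs of their means are not settled. Adjusted p of the 8 called genes ranged up to 0.139 with a day left out, while their means stayed below 0.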
